A study of Danio rerio with 20 samples.

Results

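The mucous cell genes described here are the gel-forming mucins muc5.1 (ENSDARG00000070331), muc5.2 (ENSDARG00000058556) and muc5.3 (ENSDARG00000099470), the folding enzyme agr2 (ENSDARG00000070480), the glycosyltransferase galnt12 (ENSDARG00000055490), and the transcription factors spdef (ENSDARG00000029930) and foxa3 (ENSDARG00000012788). They were chosen by name as genes known for mucus-secreting cells, with earlier results of these data known. All 7 were found among the 32105 genes counted, and all 7 passed the filter on low counts that left 20788 genes for testing. The table that pairs IDs with symbols writes agr2, spdef and galnt12 in capitals. They were measured by RNA-seq in the skin of 20 male zebrafish (Danio rerio) of the strain AB JxTu, 1 library per sample of total RNA. The 4 groups of 5 were exercised 3-year fish, unexercised 3-year fish, exercised 1-year fish and unexercised 1-year fish. Exercised fish are labelled with a swim tunnel, a device that makes fish hold their place against a water current. Unexercised fish carry the label of no perturbation.

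Fish skin is a living epithelium covered by mucus. Mucous cells, the goblet cells of the epidermis, make very large mucin proteins in the endoplasmic reticulum, load them with sugar chains in the Golgi, pack them in granules and release them at the surface. Gel-forming mucins of the MUC5 type then swell into a gel that traps particles and microbes and lowers drag. In mouse, agr2, a member of the protein disulfide isomerase family, is needed for mucin production in the gut, and in zebrafish it is needed for the maturation of goblet cells. In mouse airway, spdef and foxa3 drive the goblet cell programme. galnt12 belongs to the enzymes that attach the first sugar of mucin O-glycans. Whole skin was measured, so fewer mucous cells and less RNA per mucous cell cannot be told apart.

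Total counts per library ranged from 29280697 to 52437698. Levels are given as CPM, that is, read counts relative to the TMM-scaled size of each library, as mean ± SD with n = 5. Changes are log2 fold changes with their standard error (SE), exercised over unexercised or 3-year over 1-year, and adjusted p-values come from the quasi-likelihood test of edgeR, adjusted by the method of Benjamini and Hochberg over all 20788 genes. A gene was called when its adjusted p was below 0.05. The labels do not say how samples were taken, so the p-values measure the spread between these samples. Replicate 1 of the unexercised 1-year fish has a count column named muscle although its label says skin. On the first 2 principal components of the genes with the highest variance, replicate 5 of that group and replicate 1 of the unexercised 3-year fish lay away from the rest of their groups. Unexercised 1-year replicate 1 was set apart by its column name only. On these components it lay at -8.25 and 33.84, near replicates 2 (-6.57 and 32.95) and 3 (-5.1 and 33.62) of its group. Results that rest on these 3 libraries are given with and without them. Exercised 3-year replicate 5 also lay away from its group, at -2.52 on the first component, against 29.3 to 66.5 in the other 4 libraries of that group. Without it all calls of the 7 genes held, foxa3 and galnt12 also passed with age in exercised fish, and foxa3 passed with age averaged over exercise. Its effect on the gene lists is given where it moved a count.

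The 7 genes spanned a wide range of abundance in skin. Per length, with each library's own total, agr2 was the most abundant at 186.5 ± 83.4 RPKM (mean ± SD over 20 libraries), followed by muc5.2 at 56.5 ± 16.9 RPKM and muc5.1 at 13 ± 4.28 RPKM. galnt12 at 7.16 ± 1.87 RPKM and foxa3 at 5.94 ± 1.87 RPKM differed by less than their spread. spdef stood at 0.618 ± 0.25 RPKM and muc5.3 at 0.018 ± 0.0075 RPKM. The counts behind these levels were 22492 to 72378 reads per library for muc5.2, 3606 to 15322 for muc5.1 and 3235 to 19339 for agr2. foxa3 had 364 to 1258 reads and galnt12 237 to 683. spdef had 8 to 37 reads and muc5.3 5 to 19, so differences in these 2 genes rest on few reads. Of the 3 mucins in the set, skin held mainly muc5.2 RNA and almost no muc5.3 RNA.

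**Figure D1:**
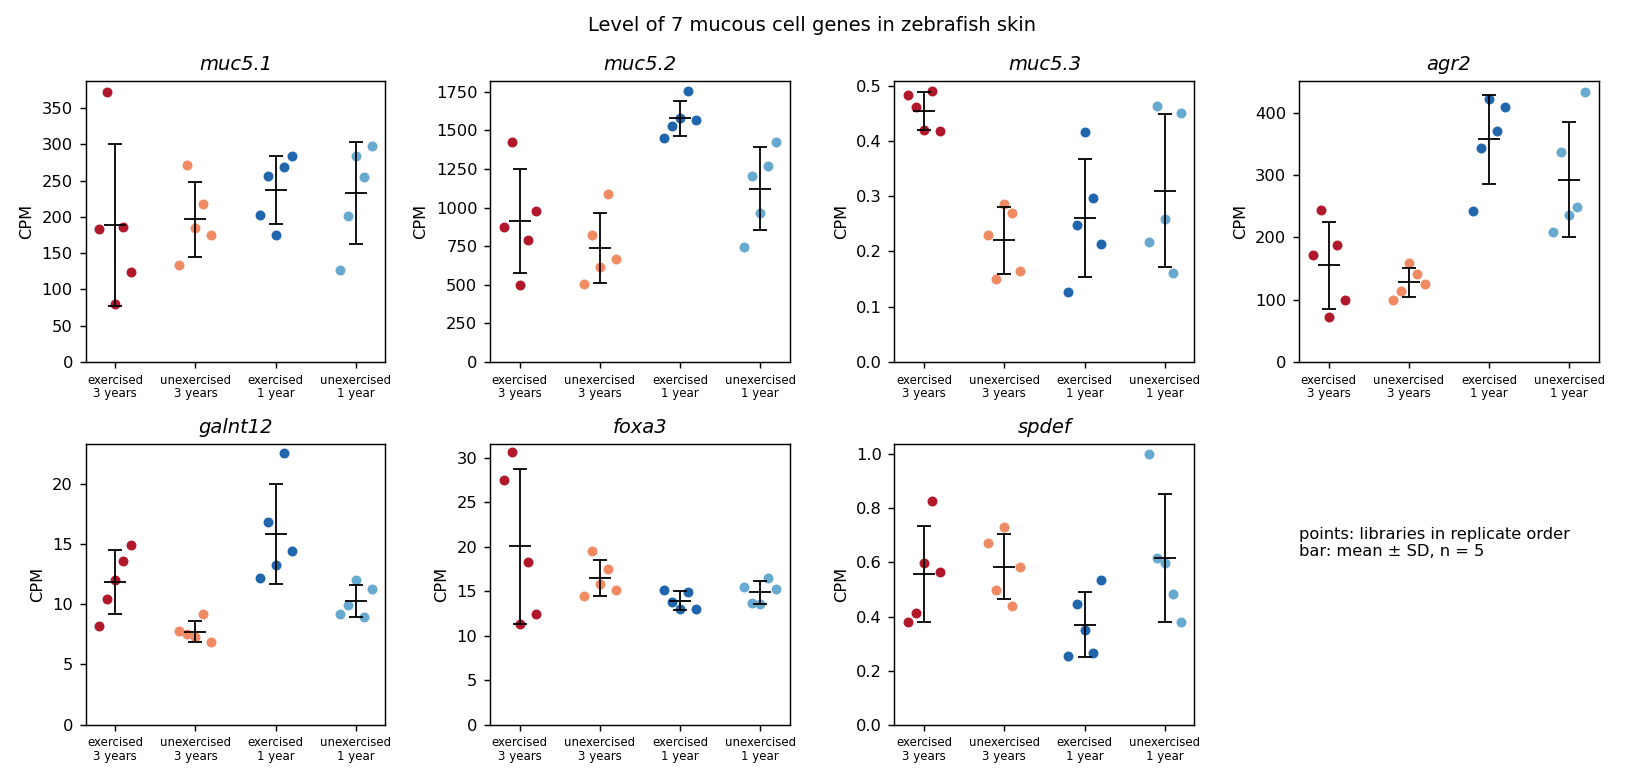
Level of each of the 7 genes (vertical axis, CPM, a separate linear scale from 0 in each panel) in each library, grouped as exercised 3-year, unexercised 3-year, exercised 1-year and unexercised 1-year fish. Points are libraries in replicate order, and bars give mean ± SD (n = 5). agr2 and muc5.2 have lower means in 3-year than in 1-year fish, galnt12 has higher means in exercised fish at each age, and muc5.1 overlaps in all 4 groups.

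Age was the factor with more calls among the mucous cell genes. Averaged over exercise, agr2, muc5.2 and galnt12 fell with age, 3 of 7 genes, while 20.3% of all genes tested were called and 8.97% were called lower. Within unexercised fish 1 of 7 passed, agr2, against 0.967% of all genes. Within exercised fish 2 of 7 passed, agr2 and muc5.2, both lower, against 17.2% of all genes called, 9.73% higher and 7.43% lower. galnt12 rose with exercise at 1 year, 1 of 7 genes against 15.5% of all genes (7.37% higher and 8.15% lower), and averaged over ages, 1 of 7 against 19.7% (9.68% higher). At 3 years exercise gave no call by edgeR among the 7, where 1.32% of all genes passed. There, 2 members had an unadjusted p below 0.05, DESeq2 called 1 (galnt12) and limma voom called 0. The effect of exercise did not pass a test of its difference between the ages in any of the 7 by edgeR, where 0.00481% of all genes passed. In that test 1 member, muc5.3, had an unadjusted p below 0.05, and DESeq2 and limma voom called 0.

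**Figure D2:**
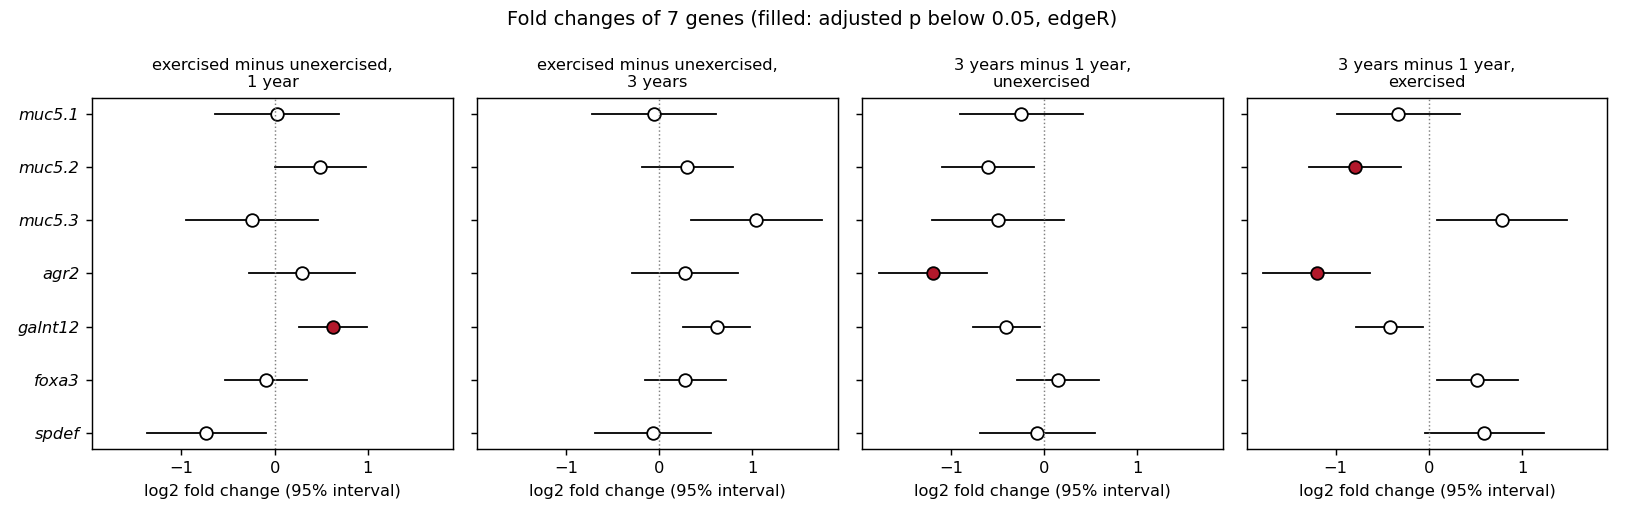
Log2 fold change (horizontal axis) of the 7 genes in 4 comparisons, exercised over unexercised at 1 year and at 3 years, and 3-year over 1-year without and with exercise. Lines are 95% intervals, and filled points have an adjusted p below 0.05 by edgeR. agr2 is filled in both age comparisons, muc5.2 in the one with exercise, and galnt12 in the one for exercise at 1 year.

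muc5.2, the mucin with most RNA in skin, had 871, 1422, 498, 790 and 977 CPM in exercised 3-year fish and 506, 824, 614, 1090 and 665 CPM in unexercised 3-year fish. It had 1453, 1528, 1583, 1757 and 1569 CPM in exercised 1-year fish, against 744, 1207, 962, 1269 and 1426 CPM in unexercised 1-year fish. Every exercised 1-year library lay above every library of the other 3 groups, which overlapped with each other. In exercised fish muc5.2 fell with age by 0.79 (SE 0.24, 95% interval -1.29 to -0.3, adjusted p = 0.0279), to 911.7 ± 336 CPM at 3 years, against 1578 ± 112 CPM at 1 year. The groups of that comparison did not overlap in 9.13% of all genes. Leaving out exercised 1-year replicate 2 or 4, or exercised 3-year replicate 1, 3 or 4, ended this call, with adjusted p = 0.0546, 0.0651, 0.0575, 0.0648 and 0.0628. It also ended with plain library totals in place of TMM (adjusted p = 0.0587), with the compared groups alone (0.0539) and with a hepatocyte score as a covariate (0.0746). Without exercise the difference with age was -0.60 (SE 0.24, adjusted p = 0.205). Averaged over exercise muc5.2 fell with age by 0.70 (SE 0.17, adjusted p = 0.00802), and it kept this call in all 20 fits that left out 1 library. The difference with exercise was 0.49 (SE 0.24, adjusted p = 0.167) at 1 year, although the groups did not overlap, as in 12.8% of all genes, and 0.30 (SE 0.23, adjusted p = 0.511) at 3 years. With the compared groups alone the 1-year difference passed (adjusted p = 0.049). With a superficial keratinocyte score as a covariate the differences with exercise changed sign, to -0.16 (adjusted p = 0.811) at 1 year and -0.20 (adjusted p = 0.716) at 3 years, while the age difference without exercise passed (-0.72, adjusted p = 0.049). With that covariate 67 of all genes were called for exercise at 1 year, against 3227 in the main fit.

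muc5.1, the second gel-forming mucin, had 183.5, 373, 79.9, 185.5 and 124 CPM in exercised 3-year fish and 134, 272, 185, 218 and 175 CPM in unexercised 3-year fish. It had 203, 256, 175, 268.5 and 284 CPM in exercised 1-year fish, against 126, 201.5, 284, 255 and 298 CPM in unexercised 1-year fish. All 4 groups overlapped, and replicates 2 and 3 of the exercised 3-year fish held the highest and the lowest value of the 20. muc5.1 passed in none of the 7 comparisons. Its difference with age was -0.24 (SE 0.32, adjusted p = 0.721) without exercise and -0.33 (SE 0.32, 95% interval -0.99 to 0.34, adjusted p = 0.502) with exercise. Its difference with exercise was 0.03 (SE 0.32, adjusted p = 0.968) at 1 year, with a 95% interval from -0.64 to 0.69, and -0.06 (SE 0.32, adjusted p = 0.946) at 3 years. With the keratinocyte covariate the 1-year difference was -0.92 (adjusted p = 0.149). In the order of RefSeq genes on the assembly GRCz12tu, muc5.1 and muc5.2 are neighbours with 1 long noncoding RNA gene between them, which overlaps muc5.1. The library kit does not mark strand, so reads from the stretch that muc5.1 and that RNA share cannot be told apart. Reads were counted on GRCz10, and the size of this overlap there was not examined. How reads that match more than 1 mucin were counted is not given in the sources used here.

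muc5.3, the third mucin, was near the limit of detection. It had 14, 19, 19, 19 and 17 reads in exercised 3-year libraries and 12, 6, 11, 11 and 9 reads in unexercised 3-year libraries. It had 5, 10, 19, 9 and 6 reads in exercised 1-year libraries, against 8, 15, 10, 6 and 19 reads in unexercised 1-year libraries. As CPM, the exercised 3-year libraries (0.418 to 0.491) lay above the unexercised 3-year libraries (0.149 to 0.287), as the groups did in either direction in 4.32% of all genes. They also lay above the exercised 1-year libraries (0.127 to 0.416), narrowly (0.4182 against 0.4156 CPM). The groups of that comparison did not overlap in 9.13% of all genes, and the raw reads of muc5.3 did overlap. The difference with exercise at 3 years was 1.04 (SE 0.33, adjusted p = 0.104), and the difference with age in exercised fish was 0.79 (SE 0.33, adjusted p = 0.107). Neither passed. With plain library totals, which moved the median of all genes in that age comparison to 0.25 from 0.02 under TMM, the age difference of muc5.3 was 1.02 and passed (adjusted p = 0.0275).

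agr2, the folding enzyme of mucin production, showed the largest change with age of the 7 genes. It had 172, 244, 71.7, 189 and 100 CPM in exercised 3-year fish and 100, 113, 159, 142 and 125 CPM in unexercised 3-year fish. It had 243, 343, 423, 371 and 409 CPM in exercised 1-year fish, against 208, 337, 236, 249 and 433 CPM in unexercised 1-year fish. Without exercise every 3-year library lay below every 1-year library, as the groups did in either direction in 5.08% of all genes. With exercise only the highest 3-year library, replicate 2, reached the lowest 1-year library, replicate 1. In exercised fish agr2 averaged 155 ± 69.5 CPM at 3 years and 358 ± 71.4 CPM at 1 year, 0.434 times the 1-year level in the fit, a fall by 1.2 (SE 0.28, adjusted p = 0.00857). This call held in all 20 fits that left out 1 library (highest adjusted p = 0.0209) and in all the other settings.

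In unexercised fish agr2 averaged 128 ± 23.2 CPM at 3 years and 293 ± 92.1 CPM at 1 year, 0.437 times the 1-year level in the fit, a fall by 1.19 (SE 0.28, adjusted p = 0.0432). This call was close to the threshold: 8 of the 20 fits that left out 1 library kept it. It ended without unexercised 1-year replicate 1, 2, 4 or 5 (adjusted p = 0.0618, 0.116, 0.0633 and 0.117), without exercised 1-year replicate 2, 3 or 5 (0.055, 0.0519 and 0.0505), and without unexercised 3-year replicate 1, 2, 3, 4 or 5 (0.0571, 0.097, 0.0835, 0.0722 and 0.0903). The log2 difference in those fits stayed between -1.30 and -1.02. Without the 3 libraries it was -1.03 (SE 0.32, adjusted p = 0.207), and with the hepatocyte covariate -1.11 (SE 0.29, adjusted p = 0.0878). The age differences of agr2 with and without exercise differed by -0.01 (SE 0.38, 95% interval -0.81 to 0.79, adjusted p = 0.995). Averaged over exercise agr2 fell with age by 1.2 (SE 0.19, adjusted p = 0.000896), in rank 148 by p among all 20788 genes. Its differences with exercise were 0.29 (SE 0.27, adjusted p = 0.511) at 1 year and 0.28 (SE 0.27, adjusted p = 0.615) at 3 years. With the keratinocyte covariate both changed sign, to -0.43 (adjusted p = 0.471) and -0.38 (adjusted p = 0.526).

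galnt12, the enzyme of the first step of O-glycosylation, was the only member called with exercise in the main fit. At 1 year this 1 of 7 is near the 15.5% of all genes called. It had 8.19, 10.5, 12, 13.6 and 14.9 CPM in exercised 3-year fish and 7.75, 7.5, 7.28, 9.19 and 6.9 CPM in unexercised 3-year fish. It had 12.2, 16.8, 13.3, 22.5 and 14.4 CPM in exercised 1-year fish, against 9.15, 9.91, 12, 8.92 and 11.2 CPM in unexercised 1-year fish. At 1 year all exercised libraries lay above all unexercised ones, narrowly (lowest exercised 12.15, highest unexercised 11.97 CPM). The groups did not overlap there in 12.8% of all genes. At 3 years 1 exercised library, replicate 1, lay within the range of the unexercised ones. galnt12 averaged 15.8 ± 4.13 CPM in exercised and 10.24 ± 1.32 CPM in unexercised 1-year fish, 1.55 times as high in the fit, and rose by 0.63 (SE 0.17, adjusted p = 0.0192). At 3 years it averaged 11.8 ± 2.64 CPM in exercised and 7.72 ± 0.879 CPM in unexercised fish, with a difference of 0.62 (SE 0.17, adjusted p = 0.0739) that did not pass. DESeq2 called it (adjusted p = 0.0207), as did the edgeR fits without exercised 1-year replicate 4 (0.0413) and without exercised 3-year replicate 1 (0.0424). The exercise effects at the 2 ages differed by -0.01 (SE 0.24, 95% interval -0.52 to 0.50). Averaged over ages galnt12 rose with exercise by 0.62 (SE 0.12, adjusted p = 0.00221).

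The rise of galnt12 at 1 year was lost without exercised 1-year replicate 4, the library with its highest value (0.47, adjusted p = 0.0651), and without unexercised 1-year replicate 1 or 4 (0.59 and 0.58, adjusted p = 0.0529 and 0.0525). It was also lost without the 3 libraries (0.61, adjusted p = 0.0856) and with plain library totals (0.40, adjusted p = 0.087), a scaling that moved the median of all genes to -0.21 from 0.01. Of 18 measured superficial keratinocyte genes 4 rose with exercise at 1 year and 2 at 3 years, against 7.37% and 0.803% of all genes called higher. Their summed level was 8509 to 16950 CPM in exercised and 7637 to 10790 CPM in unexercised 3-year fish, and 13030 to 22990 CPM in exercised and 7408 to 10560 CPM in unexercised 1-year fish, so that exercised and unexercised fish overlapped at 3 years and not at 1 year. With the mean log2 CPM of these genes as a covariate, galnt12 differed by 0.47 (SE 0.24, adjusted p = 0.359) at 1 year and by 0.50 (SE 0.18, adjusted p = 0.167) averaged over ages. Most calls over all genes were lost with that covariate too. For exercise at 1 year 67 genes were called, against 3227 in the main fit, and averaged over ages 316, against 4097. For age in exercised fish 3558 were called, against 3566. The age changes of agr2 and muc5.2 kept their size in that fit, -1.24 (adjusted p = 0.00172) and -0.76 (adjusted p = 0.0103) in exercised fish. With age, galnt12 fell by 0.41 (SE 0.12, adjusted p = 0.0238) averaged over exercise, a call lost with plain library totals (-0.27, adjusted p = 0.0903) and without the 3 libraries (-0.42, adjusted p = 0.067). Within exercised or unexercised fish alone its age differences, -0.42 and -0.41, did not pass (adjusted p = 0.097 and 0.24), although without exercised 3-year replicate 5 the difference in exercised fish, -0.52, did (adjusted p = 0.0489).

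foxa3, a forkhead transcription factor, had differences with age opposite in sign to those of agr2 and muc5.2, and none passed. It had 27.5, 30.6, 11.3, 18.2 and 12.4 CPM in exercised 3-year fish and 14.4, 19.5, 15.8, 17.5 and 15.11 CPM in unexercised 3-year fish. It had 15.2, 13.8, 12.9, 14.9 and 13 CPM in exercised 1-year fish, against 15.5, 13.7, 13.5, 16.4 and 15.2 CPM in unexercised 1-year fish. The 1-year libraries kept within a narrow range, with a coefficient of variation of 7.45% in exercised and 8.43% in unexercised fish. The exercised 3-year libraries spread widely (43.7%), with replicates 1 and 2 above all other libraries and replicate 3 below all of them. The difference with age in exercised fish was 0.52 (SE 0.21, adjusted p = 0.0899), which did not pass. It passed without exercised 3-year replicate 3 (0.67, adjusted p = 0.0297) or replicate 5 (0.65, adjusted p = 0.0274), with plain library totals (0.74, adjusted p = 0.0156) and with the keratinocyte covariate (0.53, adjusted p = 0.0329). Without exercise the difference with age was 0.15 (SE 0.21, adjusted p = 0.746). Averaged over exercise it was 0.33 (SE 0.15, adjusted p = 0.113), and it passed without exercised 3-year replicate 3 or 5 (0.41 and 0.40, adjusted p = 0.0371 and 0.0414) and with plain totals (0.46, adjusted p = 0.0266). A long noncoding RNA gene overlaps foxa3 in the same RefSeq annotation, and without strand reads from the shared stretch cannot be told apart. The size of this overlap on GRCz10 was not examined.

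spdef, an ETS transcription factor, had 11, 17, 27, 32 and 23 reads in exercised 3-year libraries and 35, 20, 28, 18 and 32 reads in unexercised 3-year libraries. It had 10, 18, 16, 8 and 15 reads in exercised 1-year libraries, against 37, 20, 23, 18 and 16 reads in unexercised 1-year libraries. The groups overlapped in every comparison. Its largest difference was with exercise at 1 year, 0.37 ± 0.12 CPM in exercised and 0.616 ± 0.236 CPM in unexercised fish, -0.73 on the log2 scale (SE 0.31, adjusted p = 0.112), which did not pass. With plain library totals it did (-0.96, adjusted p = 0.0438). In exercised fish spdef differed with age by 0.60 (SE 0.31, adjusted p = 0.184). Its 95% intervals reach from -1.37 to -0.09 for exercise at 1 year and from -0.69 to 0.55 for exercise at 3 years.

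How the members vary together was described over 21 pairs, with log2 CPM taken as deviations from the mean of each group, so that the age and exercise differences themselves do not enter. By Pearson's r 6 pairs passed a permutation test within groups with Benjamini-Hochberg adjustment at 0.05, and 5 of them were positive. The members share library and depth. The share of other gene pairs that pass, on deviations or over the libraries as they are, was not counted. st6galnac1.1, a gene outside the set, had r = 0.938 with muc5.1 on deviations. muc5.1 and muc5.2 had r = 0.788 (adjusted p = 0.0168, n = 20 libraries) and rho = 0.63 (adjusted p = 0.0747). muc5.1 had r = 0.72 with agr2 (adjusted p = 0.028, rho = 0.532, adjusted p = 0.125) and r = 0.719 with foxa3 (adjusted p = 0.028, rho = 0.556, adjusted p = 0.119). muc5.2 had r = 0.665 with agr2 (adjusted p = 0.028, rho = 0.429, adjusted p = 0.248). By rank these 4 did not pass. Exercised 3-year replicates 2 and 3, the highest and the lowest for muc5.1, muc5.2 and agr2 within their group, carried much of these relations. Without the 2 libraries farthest from the median of the first gene of each pair, r was 0.591, 0.466, 0.397 and 0.387 for these 4 pairs, taken in the same order.

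muc5.3 and agr2 had r = 0.568 (adjusted p = 0.0168) and rho = 0.642 (adjusted p = 0.0157), and r = 0.525 without the 2 farthest libraries, with muc5.3 at 5 to 19 reads. spdef ran against muc5.2, with r = -0.61 (adjusted p = 0.028), rho = -0.656 (adjusted p = 0.0367), and r = -0.654 without the 2 farthest libraries. galnt12 passed with no other member within groups. Its r was 0.0535 with muc5.1, 0.132 with muc5.2 and -0.0549 with agr2 (adjusted p = 0.864, 0.837 and 0.864), 0.276 with muc5.3 and 0.0695 with spdef (adjusted p = 0.46 and 0.864), and -0.415 with foxa3 (adjusted p = 0.367, rho = -0.338, adjusted p = 0.39). Over all 20 libraries as they are, where group differences enter, galnt12 and muc5.2 had r = 0.609 (adjusted p = 0.0199) and muc5.2 and agr2 r = 0.845 (adjusted p = 0.00042, rho = 0.838). In that form 5 pairs passed, 4 of them positive. With plain library totals 3 pairs passed over all libraries and 2 on deviations.

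**Figure D3:**
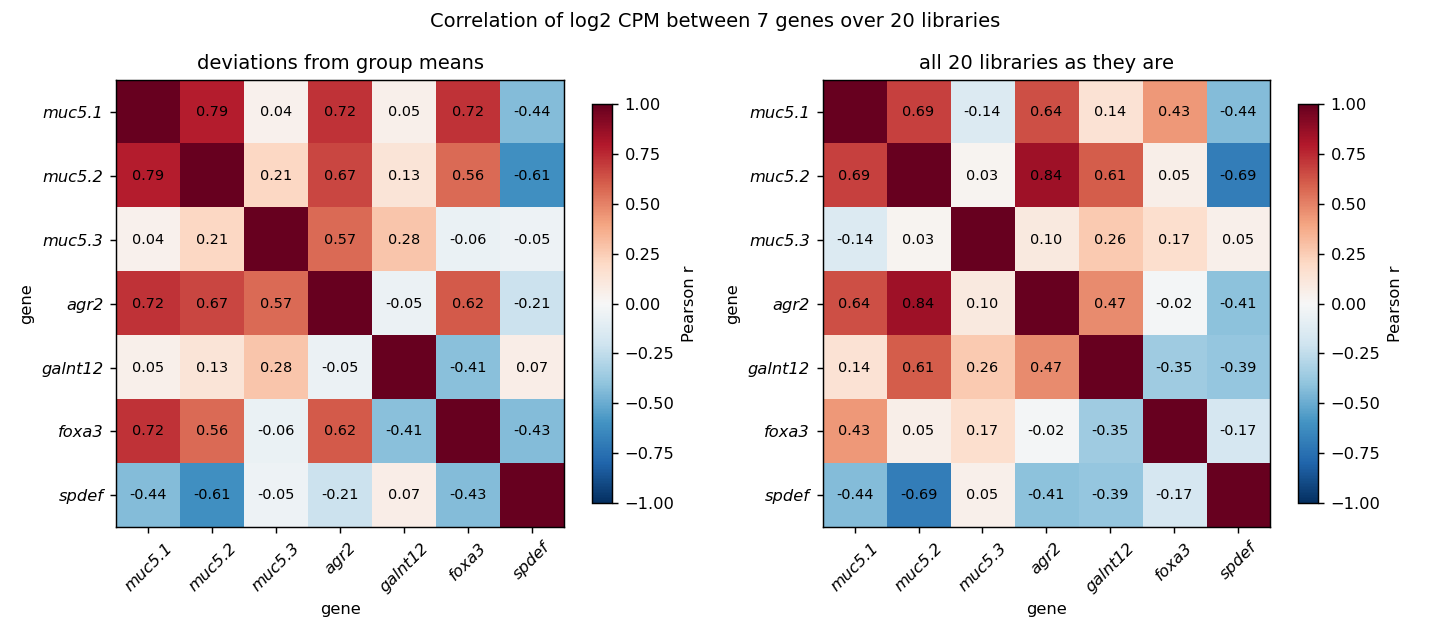
Pearson r of log2 CPM between each pair of the 7 genes (both axes, genes) over 20 libraries, on deviations from the group means and on the libraries as they are. Colour and number give r. muc5.1, muc5.2, agr2 and foxa3 are positive with each other on deviations (0.56 to 0.79), where galnt12 has 0.05 with muc5.1, 0.13 with muc5.2 and -0.05 with agr2, and spdef has -0.61 with muc5.2. The pairs of foxa3 with muc5.2 and with agr2 did not pass the permutation test on deviations (adjusted p = 0.17 and 0.214). Without the 2 libraries farthest from the median of muc5.2 or agr2, their r was 0.141 and 0.255. On the libraries as they are, galnt12 has 0.61 with muc5.2 and 0.48 with agr2.

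Reads of a gene per 100 reads of muc5.2 in the same library give a ratio that does not depend on the scaling of libraries. This measure and its 16 two-sided exact permutation tests were chosen after the values were seen. foxa3 had 3.16, 2.15, 2.27, 2.31 and 1.27 reads per 100 muc5.2 reads in exercised 3-year fish and 2.85, 2.36, 2.58, 1.61 and 2.27 in unexercised 3-year fish. It had 1.04, 0.9, 0.818, 0.847 and 0.826 in exercised 1-year fish, against 2.08, 1.13, 1.4, 1.29 and 1.07 in unexercised 1-year fish. The exercised 1-year libraries lay below all the other 15. In CPM, muc5.2, the divisor, was higher in these libraries (1453 to 1757) than in any other. foxa3 itself averaged 13.94 CPM in exercised and 14.86 CPM in unexercised 1-year fish. How many other genes separate in this way relative to muc5.2 was not counted. The log2 ratio of foxa3 differed with age in exercised fish by 1.28 (exact permutation p = 0.00794, adjusted p = 0.0635 over 16 tests) and with exercise at 1 year by -0.62 (exact permutation p = 0.00794, adjusted p = 0.0635). In unexercised fish it differed with age by 0.76 (exact permutation p = 0.0159, adjusted p = 0.0847). The smallest p that 5 against 5 allows is 0.00794, and none of the 16 tests passed an adjusted 0.05.

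agr2 relative to muc5.2 differed with age by -0.55 without exercise and by -0.44 with exercise (exact permutation p = 0.0476 and 0.103, adjusted p = 0.152 and 0.206). muc5.1 relative to muc5.2 differed with exercise by -0.46 at 1 year and -0.48 at 3 years (exact permutation p = 0.0397 and 0.0714, adjusted p = 0.152 and 0.19). The ratio of galnt12 to muc5.2 overlapped between groups in all 4 comparisons, with adjusted p from 0.317 to 0.698 by exact permutation.

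**Figure D4:**
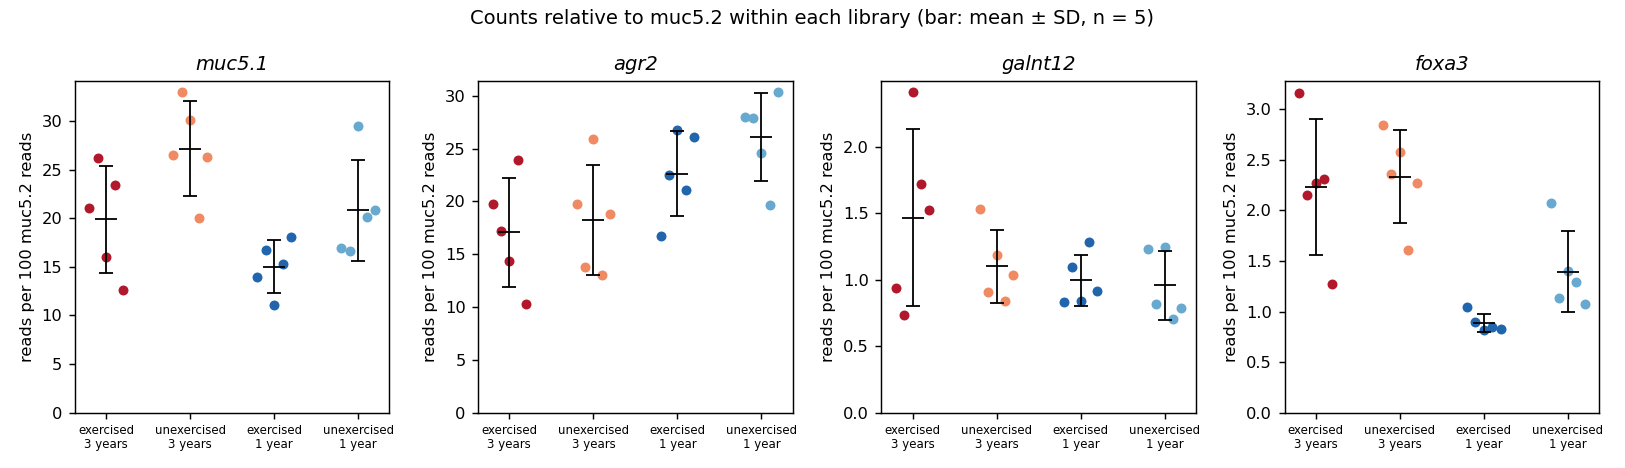
Reads of muc5.1, agr2, galnt12 and foxa3 per 100 muc5.2 reads (vertical axis, linear from 0) in each library, by group. Points are libraries, and bars give mean ± SD (n = 5). The 5 exercised 1-year libraries have 0.818 to 1.04 foxa3 reads per 100 muc5.2 reads, below the other 15 libraries. These 5 libraries also have the highest muc5.2 CPM.

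Genes outside the set that varied most like it were ranked by Pearson's r of log2 CPM over 20 libraries, as a description that shares library and depth with the members. The gene most like the mean of the 7 was st6galnac1.1 (r = 0.852, and 0.861 on deviations from group means), a sialyltransferase gene named for the addition of sialic acid to O-glycans. After it came foxr1 (0.85), the epithelial adhesion gene epcam (0.818), sytl4 (0.812), whose mammalian product acts in secretory granule docking, si:dkey-65b12.6 (0.806), SPTSSA (0.805), CLIC3 (0.795) and SLC46A3 (0.794). epcam is also in the superficial keratinocyte list. For muc5.1 the closest was again st6galnac1.1 (r = 0.906, and 0.938 on deviations), followed by gpx3 (0.866) and si:dkey-65b12.6 (0.819). st6galnac1.1 had 28, 50, 14.6, 26.3 and 19 CPM in exercised 3-year fish and 16.6, 26.6, 25.5, 28.1 and 21.4 CPM in unexercised 3-year fish. It had 30.3, 38.9, 25.7, 43.2 and 35.5 CPM in exercised 1-year fish, against 23.2, 34, 31.7, 36.6 and 37.8 CPM in unexercised 1-year fish. Like muc5.1, its highest and lowest libraries were exercised 3-year replicates 2 and 3, and it passed in none of the 7 comparisons.

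The closest genes differed from member to member. For muc5.2 they were the matriptase-type protease gene st14b (r = 0.921, and 0.861 on deviations from group means), CHMP2B (0.915, and 0.81) and MFSD6 (0.895, and 0.843). For agr2 they were the annexin anxa2b (0.898, and 0.83 on deviations), myl12.1 (0.879, and 0.637) and dhrs12 (0.861, and 0.575). For galnt12 they were the sphingosine kinase gene SPHK1 (0.934), MAPKAPK2 (0.93) and DOT1L (0.929), and for foxa3 znf750 (0.803), known in human for epidermal differentiation, HEXIM2 (0.783) and EFNA5 (0.782). For spdef and muc5.3, with few reads, the genes of rank 2 were si:ch73-334d15.1 (0.845) and ADGRL3 (0.711). st14b rose with exercise at 1 year by 0.66 (SE 0.17, adjusted p = 0.0152) and fell with age in exercised fish by 0.68 (SE 0.17, adjusted p = 0.0135). anxa2b fell with age averaged over exercise by 0.79 (SE 0.17, adjusted p = 0.00422).

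**Figure D5:**
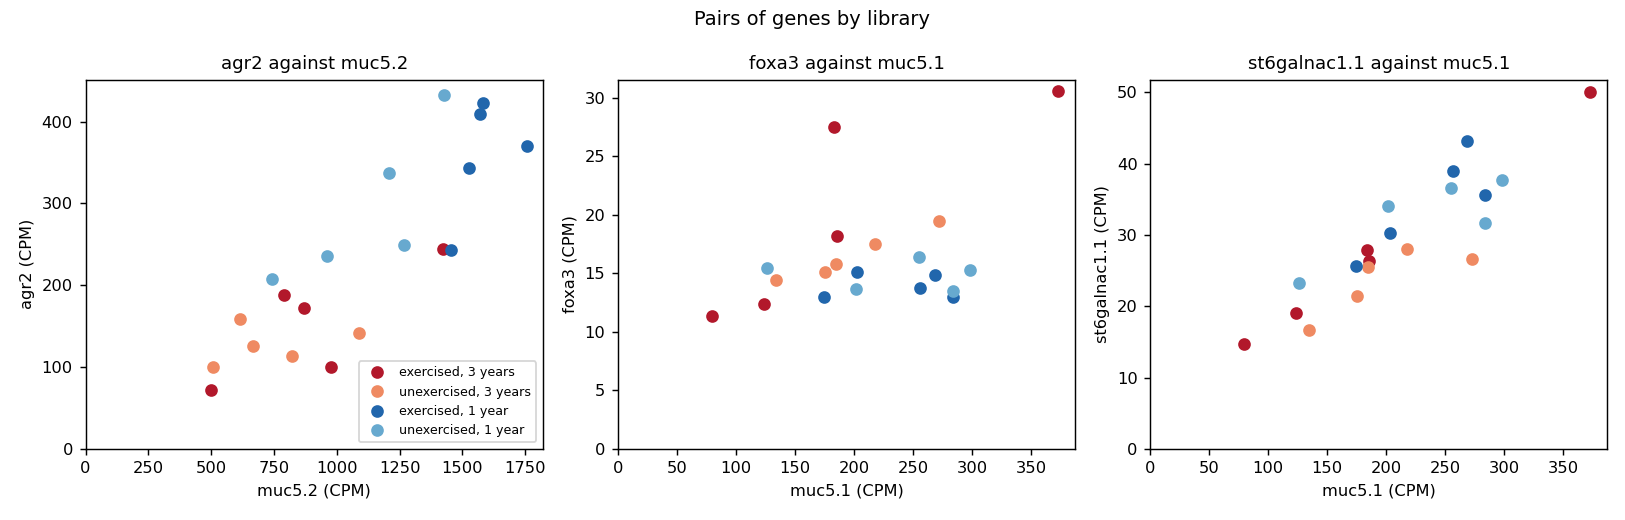
CPM of agr2 against muc5.2, of foxa3 against muc5.1 and of st6galnac1.1 against muc5.1 (both axes linear from 0), 1 point per library, coloured by group. st6galnac1.1 and muc5.1 rise together across groups (r = 0.906 on the log2 scale), agr2 and muc5.2 are lower together in 3-year fish, and 2 exercised 3-year libraries stand high for foxa3.

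Other genes of mucin O-glycosylation changed in both directions with age. Averaged over exercise, 5 of 26 measured genes rose and 7 fell, where 11.3% of all genes were called higher and 8.97% lower, with a median log2 fold change of -0.14, against 0.02 over all genes. The sialyltransferase st3gal1l fell by 1.07 (SE 0.18, adjusted p = 0.00109) and st3gal1 by 2.02 (SE 0.45, adjusted p = 0.00579). Their medians were 3.616 and 1.455 CPM by plain library totals. Of the galnt12 family galnt17 rose by 0.98 (SE 0.23, adjusted p = 0.00772), at a median of 0.586 CPM by plain library totals. The other called genes of that family were lower, galnt10 (ENSDARG00000103825, -0.43, and ENSDARG00000100453, -0.368), galnt14 (-0.392) and galnt11 (-0.202). Their medians ran from 4.28 CPM for galnt14 to 31 CPM for galnt11. Outside that family, b3gnt3 (ENSDARG00000054373, 1.835, and ENSDARG00000058100, 0.633), gcnt3 (0.593) and gcnt7 (0.533) were called higher. Medians of these ran from 2.35 to 4.47 CPM. b3gnt7l was called lower (-0.806). st3gal1l had 1.37 ± 0.29 CPM in exercised 3-year fish, 3.69 ± 1.74 CPM in unexercised 3-year fish, 4.15 ± 0.957 CPM in exercised 1-year fish and 5.41 ± 0.764 CPM in unexercised 1-year fish. It was also the 1 gene of the list called with exercise at 3 years, lower by 1.43 (SE 0.26, adjusted p = 0.0168), where 1.32% of all genes were called. Without the 3 libraries 0 genes of the list were called there, and limma voom called 0. DESeq2 called 1 higher and 2 lower. With exercise at 1 year 1 of 26 passed, against 15.5% of all genes called. This was b3gnt7l, an N-acetylglucosaminyltransferase-type gene, which rose by 1.5 (SE 0.39, adjusted p = 0.0144). Averaged over ages 2 of 26 rose with exercise and 2 fell, against 9.68% of all genes called higher and 10% lower. galnt16 (0.563, adjusted p = 0.03) and galnt6 (0.493, adjusted p = 0.046) rose, and st3gal1l (-0.905) and galnt14 (-0.411) fell. In this comparison plain library totals gave 0 higher and 8 lower. Without the 3 libraries, or without exercised 3-year replicate 5, 0 were higher and 2 lower. With plain library totals 6 genes were higher and 2 lower with age averaged over exercise, and without the 3 libraries 3 were higher and 6 lower.

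Among 14 measured transcription factors of secretory cells, 4 rose and 1 fell with exercise averaged over ages, where 9.68% of all genes were called higher and 10% lower. With age averaged over exercise 1 fell, against 20.3% of all genes called, and without exercised 3-year replicate 5, 1 rose and 1 fell. creb3l1, whose mammalian product activates secretory pathway genes, did both: it rose with exercise by 0.86 (SE 0.19, adjusted p = 0.00434) and fell with age by 0.88 (SE 0.19, adjusted p = 0.0045). Its level was 25.9 ± 7.49 CPM in exercised and 14.4 ± 3.08 CPM in unexercised 3-year fish, and 48.4 ± 15.3 CPM in exercised and 26.3 ± 10.17 CPM in unexercised 1-year fish. klf4, a goblet cell factor of the mouse colon that is also active in barrier keratinocytes, rose with exercise by 2.07 (SE 0.46, adjusted p = 0.00522), creb3l2 rose by 0.45 and foxa2 by 1.06, and the ETS factor ehf fell by 0.73 (SE 0.19, adjusted p = 0.011). foxa2 had a median of 0.273 CPM by plain library totals, and at 1 year it rose with exercise by 2.319 (SE 0.475, adjusted p = 0.00367). At 3 years edgeR called 0 of the 14 genes with exercise, against 1.32% of all genes. DESeq2 called 4 of them higher there, and 729 of all 20788 genes. Without the 3 libraries 3 of the 14 rose with exercise and 1 fell.

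Of 39 genes of secretory folding and mucin packaging, 1 rose and 6 fell with age averaged over exercise, with a median of -0.08. These 7 of 39 are near the 20.3% of all genes called in that comparison. slc12a2, a chloride cotransporter of fluid secretion, fell by 0.54 (SE 0.11, adjusted p = 0.00327), and sec24d, a coat protein of vesicles leaving the endoplasmic reticulum, fell by 0.56 (SE 0.17, adjusted p = 0.026). pdia2, from the same protein family as agr2, rose by 2.41 (SE 0.57, adjusted p = 0.00772), at a median of 0.96 CPM by plain library totals. The more abundant pdia3 (median 279 CPM), pdia4 (89.8 CPM), agr1 (82.7 CPM) and pdia6 (72.2 CPM) of the list were not called in that comparison. With plain library totals 4 were higher and 1 lower. Without the 3 libraries 1 was higher and 4 lower. In this comparison, where agr2 fell, 32 of 39 genes of the list did not pass.

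Of 10 other mucins and mucus components 2 rose with age averaged over exercise, near the 20.3% of all genes called (2 rose and 1 fell without exercised 3-year replicate 5), clca1 by 2.75 (SE 0.50, adjusted p = 0.00193) and clca5.1 by 1.31 (SE 0.32, adjusted p = 0.00944), genes of a family whose member CLCA1 is secreted with mucus in mammals. clca1 had a median of 0.487 CPM by plain library totals. clca5.1 had 203 ± 59.8 CPM in exercised and 197 ± 96.1 CPM in unexercised 3-year fish, against 75.1 ± 33.5 CPM in exercised and 87 ± 43.5 CPM in unexercised 1-year fish. With exercise averaged over ages 1 of the 10 rose and 1 fell, against 19.7% of all genes called. itln1 (ENSDARG00000007534), an intelectin, a lectin of mucus in mammals, rose by 1.65 (SE 0.48, adjusted p = 0.0219) and at 1 year by 3.33 (SE 0.73, adjusted p = 0.0057), and without the 3 libraries it was not called in the average. Its median was 1.138 CPM by plain library totals. Another itln1 entry (ENSDARG00000095082), with a median of 2.565 CPM, was called in no comparison. muc13a, a membrane mucin, fell by 0.78 (SE 0.22, adjusted p = 0.0199). In mouse airway and gut, interleukin 4 and interleukin 13 drive mucous cell formation. Of 12 genes of this type 2 cytokine pathway 3 rose with age averaged over exercise, against 11.3% of all genes called higher, il13ra1 by 0.46 (SE 0.12, adjusted p = 0.0143), socs1b by 1.43 (SE 0.43, adjusted p = 0.0258) and il4 by 1.2 (SE 0.38, adjusted p = 0.0328), with il4 at 0.771 ± 0.406 CPM in exercised and 0.727 ± 0.393 CPM in unexercised 3-year fish, against 0.285 ± 0.102 CPM in exercised and 0.372 ± 0.277 CPM in unexercised 1-year fish. Without the 3 libraries 1 of the 12 rose, and without exercised 3-year replicate 5, 4 rose. With exercise averaged over ages 2 of the 12 fell, il13ra1 by 0.52 (SE 0.12, adjusted p = 0.00662) and gata3 by 0.70 (SE 0.20, adjusted p = 0.0234), against 10% of all genes called lower, and without the 3 libraries 1 rose and 1 fell. Notch signalling sets the balance of secretory and other epithelial cells. Of 20 Notch pathway genes 4 rose and 1 fell with exercise averaged over ages, and 2 rose and 2 fell with age, near the 19.7% and 20.3% of all genes called. Without exercised 3-year replicate 5, 1 rose and 3 fell with age. With plain library totals 2 rose and 3 fell with exercise and 4 rose and 1 fell with age, and without the 3 libraries 3 rose and 1 fell with exercise and 1 rose and 1 fell with age. The Notch ligand jag1b rose with exercise by 0.96 (SE 0.13, adjusted p = 0.000236) and fell with age by 0.66 (SE 0.13, adjusted p = 0.00266).

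Markers of other cell types moved in some of the same comparisons, and their part in the results on mucous cell genes was not tested beyond the covariate fits given above. The superficial keratinocyte genes that rose with exercise numbered 4 at 1 year and 0 at 3 years without the 3 libraries, and 5 and 0 without exercised 3-year replicate 5. Of 14 basal keratinocyte genes 7 rose with exercise at 1 year, against 7.37% of all genes called higher, and 3 rose at 3 years, against 0.803% (0 without the 3 libraries and 1 without exercised 3-year replicate 5). With age in exercised fish 8 fell and 1 rose, against 7.43% of all genes called lower and 9.73% higher (3 fell with plain library totals). Their summed level was 39080 to 65570 CPM in exercised and 43500 to 53490 CPM in unexercised 3-year fish, and 60850 to 93520 CPM in exercised and 49210 to 61920 CPM in unexercised 1-year fish. Of 23 hepatocyte genes 17 rose with exercise at 1 year, against 7.37% of all genes called higher. In exercised fish 13 of the hepatocyte genes fell with age, against 7.43% of all genes called lower. The hepatocyte sums were 1346 to 2090 CPM in exercised and 1824 to 3298 CPM in unexercised 3-year fish, and 1912 to 7335 CPM in exercised and 1403 to 2304 CPM in unexercised 1-year fish. Without the 3 libraries 3 of those hepatocyte genes rose and 8 fell, and without exercised 3-year replicate 5, 16 rose and 5 fell. Of 19 fast skeletal muscle genes 1, myhz2, rose with exercise at 3 years, against 0.803% of all genes called higher (0 without the 3 libraries, and 0 without exercised 3-year replicate 5). There, 11 of the 19 had an unadjusted p below 0.05 by edgeR, and limma voom called 0. DESeq2 called 7 of them higher, and 729 of all 20788 genes. The median log2 fold change of the 19 was 1.35, against 0.01 over all genes. The muscle sums at 3 years were 3958 to 28790 CPM in exercised and 4163 to 10480 CPM in unexercised fish. The 9 measured enterocyte genes summed to at most 54.1 CPM in any library, and the 13 measured ionocyte genes to at most 77.5 CPM.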

How the data were processed

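Per the labels' protocols, TruSeq RNA v2 libraries of skin RNA were sequenced, 20 in all. Tools named in the submitters' processing notes are bcl2fastq 1.8.4, STAR 2.4.1d, featureCounts 1.4.6-p4, with the build GRCz10. All tests used the deposited counts per gene, whole numbers with unequal library totals and so unnormalised. In the deposited RPKM the authors' library totals run down the columns in turn (implied gene length varied by 0.00356% that way and by 22.6% with own totals), so these served only to recover gene lengths, and RPKM was recomputed with own totals. Symbols were found for 26269 genes.

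One fit of the 4 group means to all 20 libraries was made with edgeR 4.0.16 in R 4.3.3 (TMM, filterByExpr, robust quasi-likelihood F-tests), leaving 16 residual degrees of freedom, with a biological coefficient of variation of 34.7%. Log2 CPM for correlations used a prior count of 2, and permutation tests 1e+05 resamples. Alternatives were RLE scaling, plain totals, no filter, a filter of 1 CPM in 5 libraries, DESeq2 1.42.0, limma voom 3.58.1, compared groups alone, 3 covariates and each library left out; the fit without 3 libraries was added after seeing the data. The fits were also run on simulated data with few changed genes and a random covariate unrelated to the groups. Those runs do not test the covariate fits given above. The members, the lists (matched by symbol, described without a set test) and the alternatives were chosen with earlier results of these data known. All 7 members are named in every comparison, up to 4 called genes of lowest p from each list, and the genes most like the members by r; the text prints a selection. No genome sequence was used.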

Additional observations from a re-analysis of the deposited data

How the results depend on the processing

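muc5.3 and spdef rest on few reads (5 to 19 and 8 to 37 per library). For muc5.1, muc5.2, agr2 and foxa3 the exercised 3-year libraries spread more than any other group. The coefficients of variation there were 59.1%, 36.9%, 44.8% and 43.7%. No paired analysis was possible because the labels number no replicates and the numbers used here only name samples. In the fits that left out 1 library, the number of members called ran from 0 to 1 for exercise at 1 year, 0 to 1 for exercise at 3 years, 0 to 1 for age without exercise, 1 to 4 for age with exercise, 1 to 2 for exercise averaged over ages and 3 to 4 for age averaged over exercise, and it was 0 in all of them for the difference of the exercise effects. For exercise at 1 year, 2 members were called with the compared groups alone, 0 with the keratinocyte covariate and 0 without the 3 libraries. For exercise at 3 years DESeq2 called 1. For age without exercise the keratinocyte covariate gave 2, the hepatocyte covariate 0 and the fit without the 3 libraries 0. For age with exercise the compared groups alone and the hepatocyte covariate gave 1 each, and plain totals and the keratinocyte covariate 3 each. For age averaged over exercise the fit without the 3 libraries gave 2. For exercise averaged over ages the keratinocyte covariate gave 0. Over all genes that covariate gave 316 calls there, against 4097 in the main fit, and 67 against 3227 for exercise at 1 year. Called pairs numbered 3 over all libraries and 2 on deviations with plain totals. The cause of these shifts was not tested.

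No called value changed sign in any setting run. Uncalled values that did were these. With the keratinocyte covariate, at 1 year exercise gave -0.43 for agr2, -0.92 for muc5.1 and -0.16 for muc5.2. At 3 years it gave 0.25 for spdef, -0.21 for foxa3, -0.38 for agr2 and -0.20 for muc5.2, and averaged 0.005 for spdef, -0.45 for foxa3, -0.41 for agr2 and -0.18 for muc5.2. Age without exercise gave 0.031 for spdef, and the difference of effects 0.06 for agr2, 0.055 for galnt12 and 0.024 for muc5.1. With plain totals muc5.1 was -0.18 for exercise at 1 year, foxa3 -0.039 for exercise averaged, and the difference of effects 0.16 for agr2, 0.19 for galnt12 and 0.077 for muc5.1. With the muscle covariate, exercise at 3 years gave 0.11 for spdef and 0.007 for muc5.1, exercise averaged 0.029 for muc5.1, and the difference of effects 0.11 for agr2 and 0.013 for galnt12. The hepatocyte covariate gave 0.10 for foxa3 (exercise at 1 year) and 0.06 for muc5.1 (exercise averaged). The difference of effects was 0.009 for agr2 with no filter and 0.021 for galnt12 with limma voom. Without the 3 libraries muc5.1 was -0.073 for exercise at 1 year and the difference of effects 0.006 for galnt12. Leaving out 1 library, the difference of effects ran from -0.23 to 0.17 for agr2, -0.11 to 0.15 for galnt12 and -0.48 to 0.11 for muc5.1. Exercise gave muc5.1 -0.13 to 0.12 at 1 year, -0.46 to 0.14 at 3 years and -0.217 to 0.081 averaged, spdef -0.25 to 0.026 at 3 years and foxa3 -0.009 to 0.169 averaged, and age without exercise -0.21 to 0.17 for spdef.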
